A study of Mus musculus with 4 samples.

Results

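Heat shock proteins, their J protein partners and the cytosolic chaperonin were followed in mouse leukaemia cells from WT and Ybx1 conditional knockout groups. The group was chosen by gene symbol and held 95 of the 28141 rows of the expression table: symbols that begin with Hsp, Hsf or Dnaj, the numbered Cct genes, and Tcp1, Stip1, St13, Ahsa1, Ptges3, Cdc37 and Bag1 to Bag6. Residents of the endoplasmic reticulum such as Hspa5 and Hsp90b1 were left out by the rule. No expression value was used in the choice. Of the 95, 80 reached the level needed for the test and 15 did not.

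The samples were poly(A) RNA from leukaemia cells taken from the bone marrow of C57BL/6 mice, 2 libraries labelled LSCs-WT and 2 labelled LSCs-YBX1cKO. The second group carries a conditional knockout of Ybx1, which encodes an RNA- and DNA-binding Y-box protein. The series is about chronic myeloid leukaemia, but the sources used here did not give the oncogene, the Cre driver, the deleted exons, the age of the mice or whether animals were pooled. Nothing said that replicates came from separate mice, so every p-value measures only the spread between these libraries, which may be technical.

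Chaperones bind proteins that are not yet folded. HSP70 holds short stretches of chain under the control of J proteins, which deliver clients and stimulate its ATPase, and of exchange factors such as the BAG and HSP110 proteins, which release ADP. HSP90 acts later on kinases and receptors, and the kinase fusion that drives chronic myeloid leukaemia is a known HSP90 client. The chaperonin, built of the Tcp1 and Cct subunits, encloses actin and tubulin, and HSP60 with HSP10 does similar work in mitochondria. When folding is disturbed, the factor HSF1 switches on many of these genes by binding repeats of nGAAn in their promoters.

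The stretches below show such repeats before the start sites of members on which the results turn. They come from RefSeq on GRCm38.p6, which held start sites for 72 of the 95 genes. They are written 5′ to 3′ on the strand of the named gene, with capitals for paired units, spelled GAANNTTC or TTCNNGAA. Each spelling reads the same on both strands.
Hspe1, from 95 to 66 bases before its start: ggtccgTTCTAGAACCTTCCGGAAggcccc
Dnajb6, from 55 to 26 bases before its start: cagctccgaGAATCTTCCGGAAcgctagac
Cct5, from 45 to 16 bases before its start: acagcggccgaTTCCAGAAgctactctgcg
Hspa1a, from 150 to 51 bases before its start: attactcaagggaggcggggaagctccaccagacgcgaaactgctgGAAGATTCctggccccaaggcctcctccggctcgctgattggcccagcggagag
Hspb1, from 150 to 51 bases before its start: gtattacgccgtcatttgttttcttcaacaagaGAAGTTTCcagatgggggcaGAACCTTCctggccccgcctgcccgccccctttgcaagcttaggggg
The Hspe1 stretch lies on the plus strand at chr1:55088053-55088082. It was printed because 3 overlapping paired units stand in it, and because a start of Hspd1, the gene of HSP60, is near. That RefSeq start is on the other strand, 216 bases from the start of Hspe1. All 30 bases of the stretch are also inside an annotated exon of Hspd1 in GENCODE M21. The Dnajb6 stretch (plus strand, chr5:29735843-29735872) holds 2 overlapping paired units and lies within annotated exons of Dnajb6 and Gm5129. Cct5 (minus strand, chr15:31601862-31601891) is shown as a chaperonin subunit with 1 unit, which lies within an exon of Fam173b. Hspa1a (minus strand, chr17:34972207-34972306) and Hspb1 (plus strand, chr5:135887769-135887868) hold units although both lay near the bottom of the scale in all 4 libraries.

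In the 250 bases before the start, a paired unit was found for 18 of the 72 members (25.0%) and for 14.55% of the 27025 symbols with a RefSeq start. A triple repeat, in which a paired unit is followed after 2 free bases by a further GAA or TTC in alternation, was found for Hspd1, Hspe1 and Dnajb6, against 0.51% of all symbols. Of these 3 genes, Hspd1 and Hspe1 fell in the knockout and Dnajb6 rose. The matches of Hspd1 and Hspe1 are the same bases, counted once for each gene here and in the counts of paired units. Among the members with a start, a paired unit stood before 5 of the 17 called lower, 2 of the 9 called higher and 6 of the 37 not called. It also stood before 5 of the 9 that were not tested. Hspa1a and Hspa1b, with 247 of the 250 bases identical, are both among these, so the genes counted are not independent. The CCAAT box, the core of the element after which Y-box proteins are named, was searched as CCAAT or ATTGG. It was found for 25 members (34.72%) and 37.49% of all symbols. The E-box CACGTG stood before 7 members (9.72%) and 6.86% of all symbols. A match of letters is a description and does not show that a factor binds.

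Values below are log2 levels, obtained by multiplying the deposited scores by 0.693, which was chosen because replicate noise then came closest to counting noise. If the scores were plain log2, each log2 fold change would be 1.44 times as large and the p-values the same. Summed levels, levels per kilobase and their ratios and shares would differ as well. Fold changes are Ybx1 cKO minus WT, tested with limma over 15527 genes, and a gene is called at a Benjamini-Hochberg adjusted p under 0.05. Depth was unknown. Ybx1 itself was at 9.31 and 9.41 in WT against 8.19 and 8.13 in the knockout, a 2.29-fold lower level, so Ybx1 transcript was still measured in the knockout libraries. The 7 haematopoietic markers listed, Ptprc among them, all had rows and were tested. Of the stem and progenitor list 3 of 7 genes had rows, Ly6a, Mecom and Gata2, and all 3 fell, with a summed level of 485.7 and 500.2 in WT against 307.0 and 316.1 in the knockout. The call of Ly6a was lost without WT replicate 2 (limma adjusted p = 0.21). Kit and Cd34, which define such cells, were not analysed here. Summed levels are scaled to a library sum of 1000000. All 22 listed genes of dividing cells fell (median log2 fold change -1.17), and their summed level went from 3450 and 3451 in WT to 1512 and 1535 in the knockout. The part of cell division in the changes below was not tested. In bulk RNA, fewer cells of a type and less RNA per cell cannot be told apart.

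The chaperone genes mostly moved by small amounts, with more falls than rises. Of the 80 tested, 22 fell (27.5%) and 12 rose (15.0%), where 17.8% of all tested genes were called lower and 19.5% higher. In either direction 42.5% of the members and 37.4% of all genes were called. The median log2 fold change was -0.02 over the members and 0.003 over all genes. The members' median was 0.04 after the median shift of the libraries and -0.07 after quantile normalization, so its sign rests on the scaling. The groups did not overlap for 56 of the 80, nor for 65.1% of all tested genes. Hsf2bp, Hsf5, Dnajb5, Dnajc27 and Hspe1 were the 5 called members that changed by 1.5-fold or more, and of these Hsf5 and Hsf2bp changed by 2-fold or more. These counts rest on the scale chosen for the scores. Read as plain log2, more members would reach 1.5-fold, among them Hspd1 (1.68-fold) and Dnajc9 (1.65-fold). Hsf2bp passed the filter on low values through the WT group alone, so its fall was fixed by the filter and its calls in any count here support nothing. After a median shift of the libraries the split was 18 rises and 19 falls. After quantile normalization it was 10 and 29, where 36.1% of all genes were called, 18.5% higher and 17.7% lower. When the prior variance was not tied to the level, 8 of the 34 calls remained, with 3 rises (Dnajb1, Dnajc14 and Hsf5) and 5 falls (Cct4, Cct5, Hspe1, Dnajc9 and Hsf2bp). Under that setting 14.6% of all genes were called, 7.58% higher and 7.02% lower. The calls of all other members were lost under it.

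**Figure D1:**
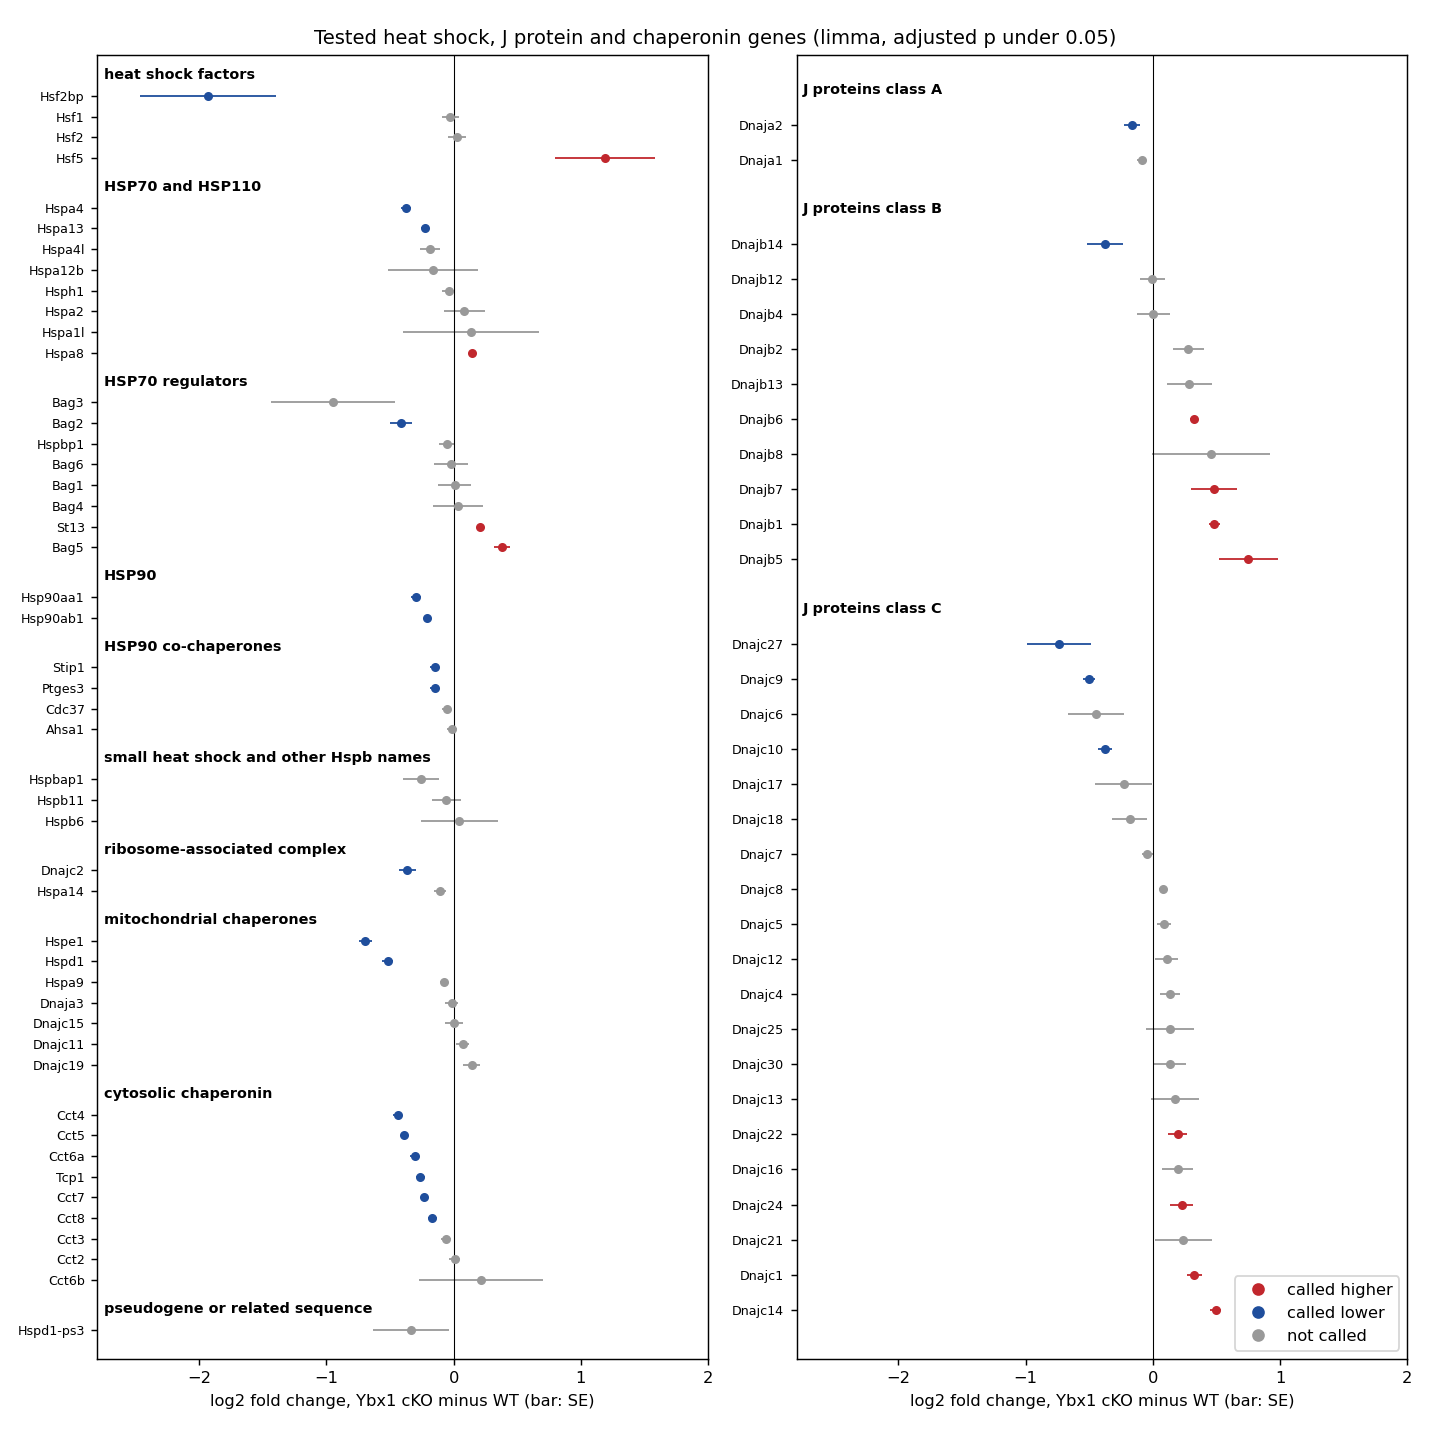
Log2 fold change (Ybx1 cKO minus WT, x axis, bars are SE) of each of the 80 tested genes, grouped by role. Red dots are called higher and blue dots lower at an adjusted p under 0.05. Falls stand among the chaperonin, HSP90 and HSP60 genes and also among J protein genes. In class B of the J proteins 4 of 10 rose and 1 fell. In class C 4 of 20 rose and 3 fell, and in class A 1 of 2 fell.

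Of the 22 falls, 13 were among the 24 members at a mean log2 level of 11 or more. Of all genes at that level 26.2% fell and 55.4% rose. At a mean log2 level from 11 to 13, 11 of the 20 members fell and 3 rose, while of the 995 genes at that level 26.4% fell and 53.1% rose. The members there had a median log2 fold change of -0.15 and all genes 0.12. Below a level of 9, 4 of 35 members fell and 4 rose. Of all genes there, 4.23% fell and 4.03% rose below 5, and 17.6% and 14.5% from 5 to 7. From 7 to 9 these shares were 27.7% and 22.1%. Of the 4 members above 13, Hspa8 and St13 rose and Hsp90ab1 and Cct7 fell, where 70.6% of all genes rose and 24.8% fell. Strongly expressed genes are also those that quantile normalization moved down, with a median shift of -0.10 from 11 to 13 and -0.26 above 13.

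**Figure D2:**
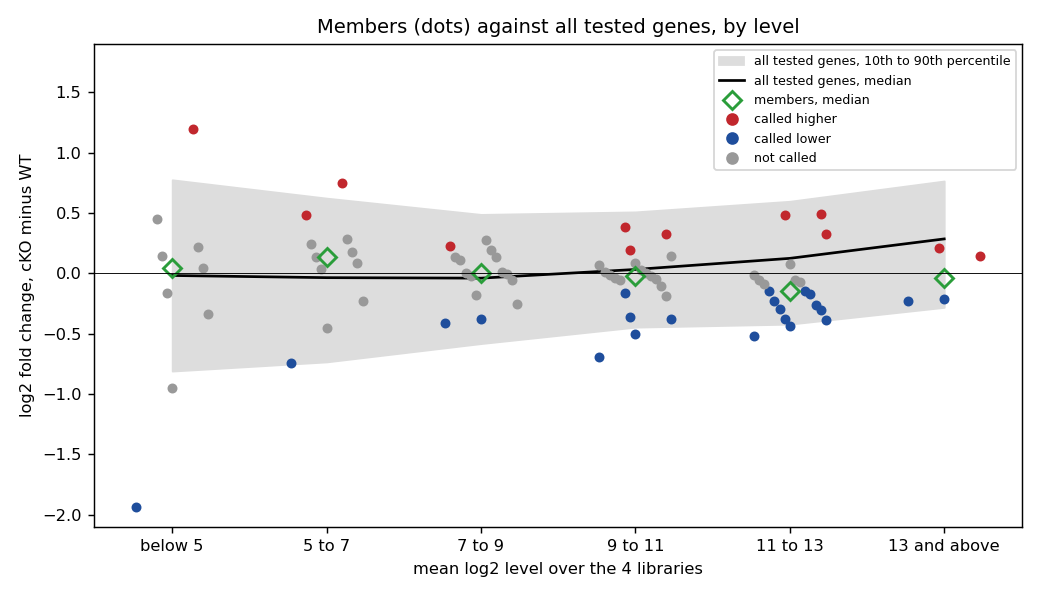
Log2 fold change (y axis) of the 80 tested members by mean log2 level over the 4 libraries (x axis, 6 bins). Dots are members, green diamonds their medians, the black line the median of all tested genes and the grey band their 10th to 90th percentile. From 11 to 13 the members' median is -0.15 and that of all genes 0.12.

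The cytosolic chaperonin is a ring complex with 8 different subunits. The genes of 6 of the 8 fell, where 17.8% of all tested genes fell and 26.4% of those at a level from 11 to 13. Cct4 stood at 11.66 and 11.68 in WT against 11.26 and 11.20 in the knockout, the deepest fall of the 8 (log2 fold change -0.44, SE 0.04, limma adjusted p = 9.6e-10). Cct5 went from 12.84 and 12.82 to 12.44 and 12.44 (-0.39, SE 0.03, limma adjusted p = 4.1e-11). For both genes the groups were separated by far more than the replicates of a group. Log2 fold changes were -0.31 (SE 0.04) for Cct6a, -0.26 (SE 0.04) for Tcp1, -0.23 (SE 0.03) for Cct7 and -0.17 (SE 0.03) for Cct8, with limma adjusted p of 2.7e-04 or less. Without the filter on low values Cct8 was not called (limma adjusted p = 0.055).

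The other two ring subunits did not pass. Cct3 stood at 11.35 and 11.34 in WT against 11.32 and 11.25 in the knockout (-0.06, SE 0.04, limma adjusted p = 0.29). Cct2 stood at 10.82 and 10.86 against 10.83 and 10.87, and the groups overlapped (0.01, SE 0.04, limma adjusted p = 0.90). Cct6b, a subunit variant known from testis, lay between 1.53 and 1.79 in all libraries, and Cct8l1 was below the test. Under the median shift and quantile normalization the 6 falls kept their direction and their call, and Cct3 was called lower after quantile normalization (-0.15, limma adjusted p = 0.003). Sequence shared with other genes was limited for the 8 ring subunits: at most 4.4% of the 50-base words in their transcripts, the value for Cct6a, also occurred in transcripts of another gene.

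Levels of different subunits can be set side by side only per length. Per kilobase of annotated exon, with each library sum scaled to 1000000 and averaged over the 4 libraries, Cct5 had 201, Cct8 127 and Cct7 115, followed by Cct6a (72.2), Cct2 (62.0), Cct4 (58.4), Tcp1 (55.8) and Cct3 (34.5). The subunit at the top exceeded the one at the bottom 6.49-fold and 6.42-fold in the WT libraries and 5.01-fold and 5.26-fold in the knockout libraries. The lengths count every annotated exon, used or not.

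The genes of proteins that work with the chaperonin were read from lists. Of 9 tested genes for prefoldin subunits and phosducin-like cofactors, which deliver and regulate chaperonin clients, 5 rose and 0 fell, where 36.9% of all genes at a level from 9 to 11 rose. After quantile normalization 5 rose and 1 fell, and without the trend none of the 9 was called. Pdcl3 rose by 0.36 (SE 0.05, limma adjusted p = 4.2e-07) and the prefoldin gene Pfdn1 by 0.26 (SE 0.05, limma adjusted p = 1.2e-04), both also after quantile normalization but not without the trend. The actin and tubulin genes, whose products fold in the chaperonin, were split, with 4 rises and 5 falls among 11. Among all tested genes 19.5% rose and 17.8% fell. The cytoplasmic actin gene Actb rose by 0.29 (SE 0.01) and the tubulin gene Tuba1b fell by 0.71 (SE 0.04). Without the trend Tuba1b was called and Actb was not.

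**Figure D3:**
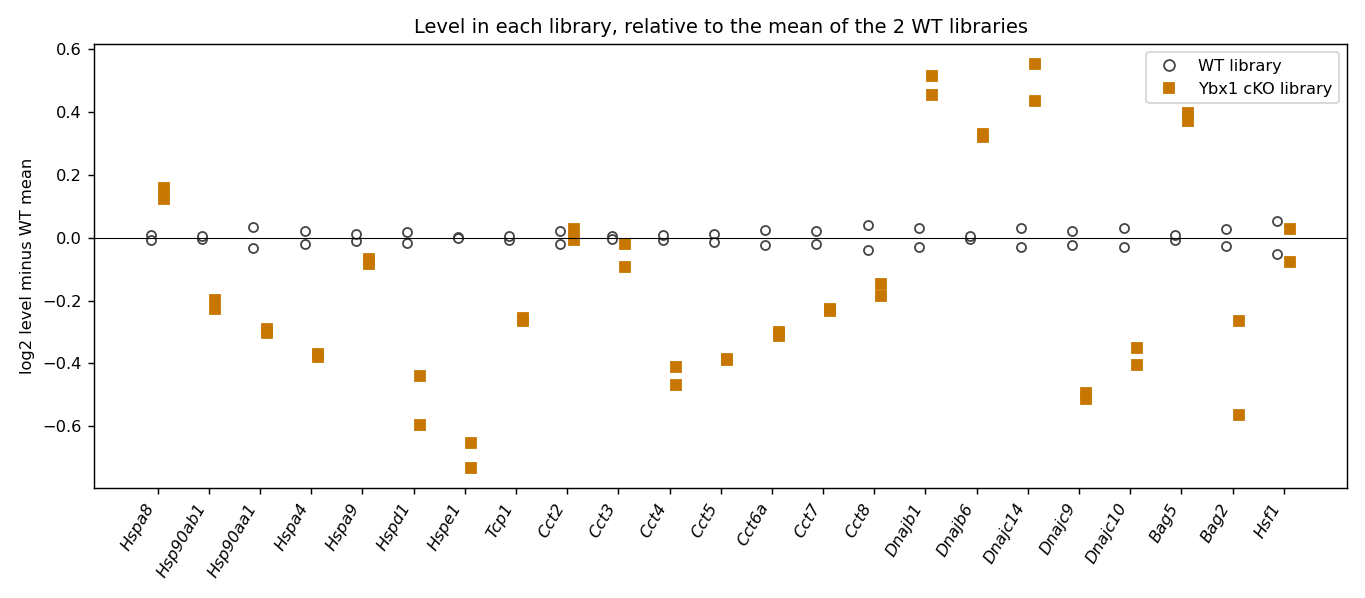
Log2 level of 23 members in each library minus the mean of the 2 WT libraries (y axis). Open circles are WT and filled squares Ybx1 cKO libraries. Both knockout squares lie below both WT circles for Tcp1, Cct3, Cct4, Cct5, Cct6a, Cct7 and Cct8, while those of Cct2 overlap.

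HSP60 and HSP10, the mitochondrial chaperonin and its lid, fell together. Hspe1 stood at 10.62 and 10.61 in WT against 9.96 and 9.88 in the knockout, a fall of 1.62-fold (log2 -0.69, SE 0.05, limma adjusted p = 7.1e-11). Hspd1 went from 11.68 and 11.72 to 11.26 and 11.10 (-0.52, SE 0.04, limma adjusted p = 6.8e-10). Hspe1 was the gene with the deepest fall among called members above a level of 6. The genes lie head to head on chromosome 1, Hspd1 from 55077835 to 55088243 and Hspe1 from 55088132 to 55091307, and overlap at their ends. The printed Hspe1 stretch with 3 paired units lies between the RefSeq start of Hspe1 and a RefSeq start of Hspd1. A further RefSeq start of Hspd1 lies beyond that of Hspe1, and seen from there the stretch is inside Hspd1. Per kilobase, Hspd1 exceeded Hspe1 by 1.17-fold and 1.20-fold in the WT libraries and by 1.37-fold and 1.30-fold in the knockout libraries. Of the 50-base words of Hspd1, 39.7% also occur in other genes' transcripts, mostly its pseudogene Hspd1-ps3, and 18.4% of those of Hspe1, so some of their reads could be split or lost. Hspd1-ps3 itself stood at 5.02 and 4.90 in WT and 4.89 and 4.36 in the knockout and was not called.

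The other mitochondrial members did not pass. Hspa9, the mitochondrial HSP70, stood at 12.32 and 12.34 against 12.25 and 12.26 (-0.08, SE 0.03, limma adjusted p = 0.054). It was called lower after quantile normalization (-0.18). The log2 fold change of Dnaja3, its J protein, was -0.01 (SE 0.05), and the import-linked Dnajc15 and Dnajc19 had 0.003 (SE 0.07) and 0.14 (SE 0.07). After the median shift Dnajc19 was called higher (0.20, limma adjusted p = 0.015). Dnajc11, a J protein of the inner-membrane organising complex, had 0.07 (SE 0.05) and was also called higher after the median shift (0.13, limma adjusted p = 0.026). Of 11 further mitochondrial folding and protease genes 3 rose and 2 fell, where 19.5% of all tested genes rose and 17.8% fell. Grpel1, the exchange factor of mitochondrial HSP70, rose by 0.39 (SE 0.04, limma adjusted p = 2.4e-08) and the protease gene Yme1l1 by 0.38 (SE 0.03, limma adjusted p = 7.7e-10), which was not called without the trend.

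Both cytosolic HSP90 genes fell. Hsp90ab1, the form made at all times, stood at 14.39 and 14.40 in WT against 14.17 and 14.20 in the knockout (-0.21, SE 0.02, limma adjusted p = 4.9e-09). Hsp90aa1, the form that stress induces, went from 11.74 and 11.67 to 11.41 and 11.40 (-0.30, SE 0.04, limma adjusted p = 5.3e-07). Per kilobase, Hsp90ab1 exceeded Hsp90aa1 by 8.26-fold and 8.71-fold in WT and by 8.86-fold and 9.13-fold in the knockout. Of the 50-base words of Hsp90aa1, 47.5% occur in other genes, mainly the predicted gene Gm12346, so its level is uncertain, while the share for Hsp90ab1 was 3.4%.

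Among HSP90 co-chaperones, Stip1, the adaptor that passes clients from HSP70 to HSP90, fell by 0.15 (SE 0.03, limma adjusted p = 9.2e-04). Ptges3, the p23 protein that holds HSP90 in its closed state, fell by 0.15 (SE 0.04, limma adjusted p = 0.0017). Its call was lost when WT replicate 1 was left out and after the median shift (-0.09, limma adjusted p = 0.054). Without the filter on low values Ptges3 was not called either (limma adjusted p = 0.073). Cdc37, which recruits kinases, stood at 11.90 and 11.91 against 11.88 and 11.82 (-0.06, SE 0.03, limma adjusted p = 0.23). Ahsa1, an activator of the HSP90 ATPase, had -0.01 (SE 0.04, limma adjusted p = 0.82). After quantile normalization Cdc37 was called lower (-0.16), and so was Ahsa1 (-0.12). Of 20 partners of HSP70 and HSP90 outside the symbol rule, 10 fell and 2 rose, with a median of -0.19. The shares over all tested genes were 17.8% lower and 19.5% higher. The 20 lay at mean levels from 7 to 13. By bin of level, 26.4% to 29.8% of all genes fell there and 22.1% to 53.1% rose. After the median shift 9 of the 20 fell and 5 rose, and without the trend 3 fell and 0 rose. The immunophilin gene Fkbp4 fell by 0.49 (SE 0.04, limma adjusted p = 9.9e-11) and Ruvbl2, an ATPase of the R2TP complex that works with HSP90, by 0.45 (SE 0.04, limma adjusted p = 4.8e-09), which was not called without the trend.

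Among the members classed as HSP70 and HSP110, 1 gene, the constitutive Hspa8, held most of the level. This class leaves out Hspa9, Hspa14 and, by the rule, Hspa5, so the share is not one of the whole family. Not divided by length, the log2 level of Hspa5 was above that of Hspa8, at 15.194 and 15.175 in WT and 15.287 and 15.314 in the knockout. Per kilobase Hspa8 ranked 54 of 15194 genes, and Hsp90ab1 ranked 52. Hspa8 made up 77.9% of the summed per-kilobase level of this class in both WT libraries and 81.7% and 82.5% in the knockout libraries. Its log2 level was 14.73 and 14.71 in WT and 14.85 and 14.88 in the knockout, a rise of 0.14 (SE 0.02, limma adjusted p = 1.1e-06) that turned into a fall of -0.25 after quantile normalization (limma adjusted p = 1.7e-10). Per kilobase, with the library sum scaled to 1000000, its level was 566.8 and 563.8 against 565.9 and 578.1, and the groups overlapped. The direction for Hspa8 therefore rests on how the libraries are scaled, and 38.6% of its 50-base words also occur in other genes. Hspa4, an HSP110-type exchange factor, fell by 0.38 (SE 0.04, limma adjusted p = 1.4e-08), from 11.62 and 11.58 to 11.23 and 11.22. Hspa13, an HSP70 of the secretory pathway, fell by 0.23 (SE 0.03, limma adjusted p = 1.4e-06). The relatives of Hspa4, Hspa4l (-0.19, limma adjusted p = 0.060) and Hsph1 (-0.04, limma adjusted p = 0.60), did not pass. For both, the knockout libraries lay below the WT libraries, as for 32.4% of all tested genes. Hspa2 (6.55 to 6.84), Hspa12b (3.75 to 4.57) and Hspa1l (0.45 to 1.09) overlapped between the groups and did not pass, and Hspa12a was below the test.

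The HSP70 genes best known as heat-inducible were near the bottom of the scale. Hspa1a stood at -0.16 and 0.85 in WT against -0.58 and -0.64 in the knockout, and Hspa1b at 0.10 and 0.12 against -0.01 and -0.56. Neither entered the test. The copies share most of their sequence: 60.3% of the 50-base words of Hspa1a and 62.3% of those of Hspa1b occur in another gene, and 247 of the 250 bases before their starts were identical, so reads that fit both may have been dropped or split. The small heat shock gene Hspb1 lay between -1.58 and -1.35, with 48.8% of its words shared with the pseudogene Hsp25-ps1. Hspb6 (4.57 to 5.25), Hspb11, an intraflagellar transport gene (7.80 to 8.04), and Hspbap1 (6.87 to 7.24) were tested and not called, and Hspb3, Hspb7 and Hspb9 were below the test. The pseudogene rows Dnajb6-ps, Dnajc19-ps, Hspe1-ps1 and Hspe1-ps2 were below it as well.

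**Figure D4:**
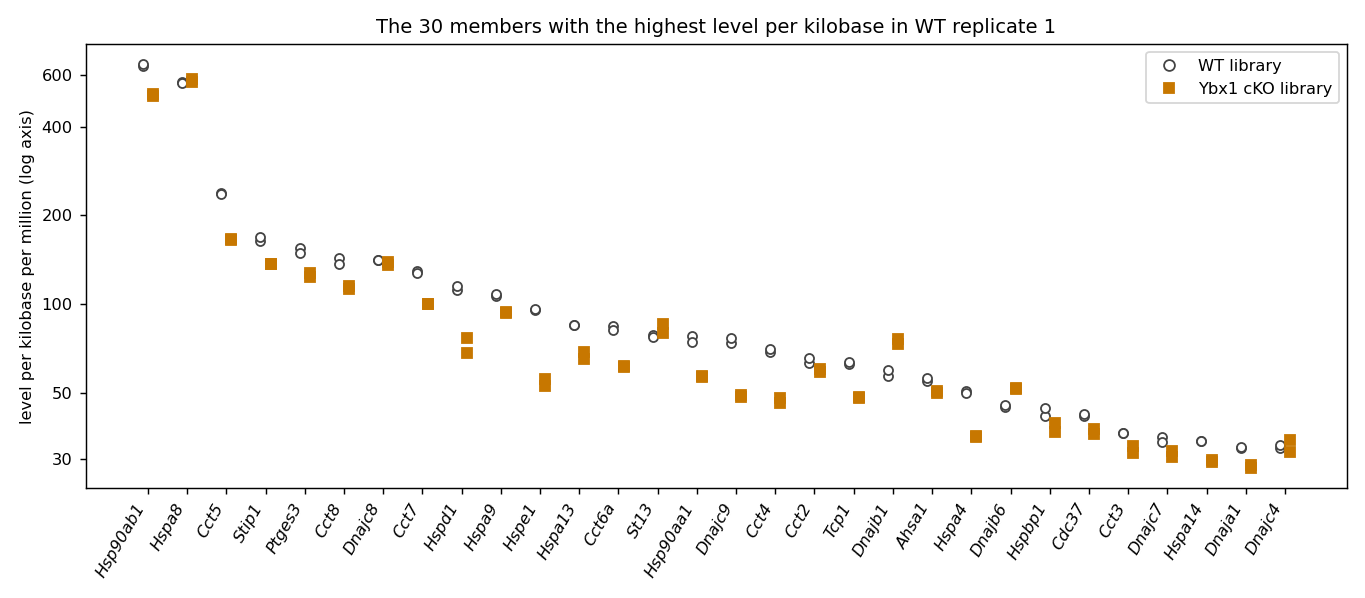
Level per kilobase of exon, with each library sum scaled to 1000000 (y axis, log scale), for the 30 members with the highest value in WT replicate 1. Open circles are WT and filled squares Ybx1 cKO libraries. Hsp90ab1 lies lower in both knockout libraries (508.0 and 516.6) than in both WT libraries (642.8 and 651.1), while Hspa8 lies at about the same height in both groups.

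The exchange factors and other regulators of HSP70 were split. Bag5 rose by 0.38 (SE 0.06, limma adjusted p = 2.3e-05), from 9.31 and 9.32 to 9.71 and 9.69. St13, which stabilises HSP70 with bound ADP, rose by 0.21 (SE 0.03, limma adjusted p = 1.9e-06) but not after quantile normalization (0.04, limma adjusted p = 0.24). Bag2, an inhibitor of the ubiquitin ligase CHIP, fell by 0.41 (SE 0.09, limma adjusted p = 6.4e-04). Its knockout libraries lay apart, at 8.43 and 8.73, and both were below the WT values of 9.02 and 8.97; without the filter on low values it was not called (limma adjusted p = 0.092). Bag3, a stress-inducible member that links HSP70 to autophagy, stood at 2.51 and 2.58 in WT against 1.13 and 2.07 in the knockout and did not pass (-0.95, SE 0.49, limma adjusted p = 0.14). Bag1, Bag4, Bag6 and Hspbp1 had log2 fold changes between -0.05 and 0.04, and for each the groups overlapped.

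The heat shock factors that control the stress response did not pass. Hsf1 stood at 9.68 and 9.58 in WT against 9.55 and 9.66 in the knockout, with overlapping groups (-0.03, SE 0.07, limma adjusted p = 0.81). Hsf2 stood at 9.09 and 9.02 against 9.09 and 9.06 (0.03, SE 0.07, limma adjusted p = 0.83). Hsf5, a factor known from testis, went from 2.90 and 2.72 to 4.18 and 3.82, a rise of 1.19 (SE 0.39, limma adjusted p = 0.019). Its call was lost without WT replicate 1 (limma adjusted p = 0.054), WT replicate 2 (0.11) or cKO replicate 1 (0.096). Hsf2bp, known from meiotic recombination, stood at 2.003 and 1.674 in WT against 0.25 and -0.43 in the knockout. It was the 1 member that passed the filter through 1 group alone, so it had to differ. Its log2 fold change of -1.93 (SE 0.53, limma adjusted p = 0.0055) was not called without WT replicate 1 (limma adjusted p = 0.081). Hsf3 and Hsf4 were below the test. Without the filter on low values neither Hsf5 (limma adjusted p = 0.13) nor Hsf2bp (0.066) was called.

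J proteins of class B resemble bacterial DnaJ less closely than those of class A. Of 10 tested, 4 rose and 1 fell, where 19.5% of all tested genes rose and 17.8% fell. The median log2 fold change of the 10 was 0.31. Dnajb1, the main stress-inducible J protein of the cytosol, stood at 10.99 and 11.06 in WT against 11.48 and 11.54 in the knockout, a 1.40-fold rise (0.48, SE 0.04, limma adjusted p = 6.4e-10). Dnajb6, a suppressor of protein aggregation, went from 11.57 and 11.58 to 11.89 and 11.90 (0.32, SE 0.03, limma adjusted p = 3.5e-08). Its printed stretch holds a triple repeat, and so does that of Hspe1, which fell. Dnajb1 and Dnajb6 kept direction and call under both scalings. Of their 50-base words, 17.7% of those of Dnajb6 and 0.4% of those of Dnajb1 occur elsewhere. Per kilobase, Hspa8 exceeded Dnajb1 by 9.93-fold and 9.39-fold in WT and by 7.69-fold and 7.57-fold in the knockout. The values of Dnajb1 and Dnajb6 did not overlap between the groups, which holds in the upward direction for 32.7% of all tested genes.

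The other class B calls were lost when 1 library was left out. Dnajb5 rose by 0.75 (SE 0.23, limma adjusted p = 0.012), and its call was lost without WT replicate 1 (0.14) or cKO replicate 2 (0.054). Dnajb7 rose by 0.48 (SE 0.18, limma adjusted p = 0.042) and lost its call without WT replicate 1 (0.12), WT replicate 2 (0.16) or cKO replicate 2 (0.14). Dnajb14, anchored in the endoplasmic reticulum, fell by 0.38 (SE 0.14, limma adjusted p = 0.041). Its limma adjusted p lay between 0.053 and 0.18 when any 1 library was left out and at 0.092 after the median shift. It was 0.090 after quantile normalization. Dnajb2 (0.28, SE 0.12, limma adjusted p = 0.080) and Dnajb12 (-0.004, SE 0.10, limma adjusted p = 0.98), the other reticulum-anchored member, were not called, though Dnajb2 was called higher after the median shift (0.34, limma adjusted p = 0.026). Dnajb4, Dnajb8 and Dnajb13 did not pass either. In class A, Dnaja1 did not pass (-0.09, SE 0.04, limma adjusted p = 0.059), but it was called lower after quantile normalization (-0.19, limma adjusted p = 1.7e-04). Dnaja2 fell by 0.17 (SE 0.06, limma adjusted p = 0.034) but was not called without WT replicate 1 (0.37), without cKO replicate 1 (0.095) or after the median shift (0.19).

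Class C gathers J proteins with specialised tasks, and 4 of the 20 tested rose and 3 fell, close to the shares over all tested genes (19.5% and 17.8%). Dnajc9, which handles newly made histones H3 and H4, went from 10.94 and 10.98 to 10.47 and 10.45, a fall of 1.42-fold (-0.50, SE 0.05, limma adjusted p = 2.0e-09). Dnajc10, a reductase of the endoplasmic reticulum, fell by 0.38 (SE 0.05, limma adjusted p = 3.0e-06). Dnajc14, of the reticulum membrane, rose from 10.84 and 10.78 to 11.36 and 11.24 (0.49, SE 0.05, limma adjusted p = 2.7e-09), and Dnajc1, which binds ribosomes at that membrane, rose by 0.33 (SE 0.06, limma adjusted p = 9.6e-05). These 4 kept direction and call under both scalings and with any 1 library left out.

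Of the weaker calls in class C, Dnajc27 fell by 0.74 (SE 0.25, limma adjusted p = 0.022), with its call lost without WT replicate 2 (0.22) or cKO replicate 2 (0.062). Dnajc22 rose by 0.19 (SE 0.07, limma adjusted p = 0.037) and lost its call whichever library was left out, with limma adjusted p from 0.070 to 0.15. Dnajc24, needed to make diphthamide, rose by 0.23 (SE 0.09, limma adjusted p = 0.048). It lost its call without WT replicate 1 (0.33), WT replicate 2 (0.059) or cKO replicate 2 (0.12). The 13 genes of the class that did not pass ranged from -0.45 (Dnajc6) to 0.24 (Dnajc21). Among them were Dnajc8, linked to splicing (0.08, SE 0.03, limma adjusted p = 0.060), and Dnajc7 (-0.04, SE 0.05, limma adjusted p = 0.50). Dnajc8 was called higher after the median shift (0.14, limma adjusted p = 7.5e-04) and was at -0.02 after quantile normalization. Dnajc4 (0.20) and Dnajc5 (0.15) were also called higher after the median shift, and Dnajc7 was called lower after quantile normalization (-0.12).

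At the ribosome, Dnajc2 and Hspa14 form the complex that receives the nascent chain. Dnajc2 fell by 0.36 (SE 0.07, limma adjusted p = 1.1e-04), from 9.82 and 10.02 to 9.61 and 9.50. Without the filter on low values it was not called (limma adjusted p = 0.062). Its partner Hspa14 stood at 10.61 and 10.60 against 10.48 and 10.51 and did not pass (-0.10, SE 0.05, limma adjusted p = 0.087), though it was called lower after quantile normalization (-0.16, limma adjusted p = 0.008).

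**Figure D5:**
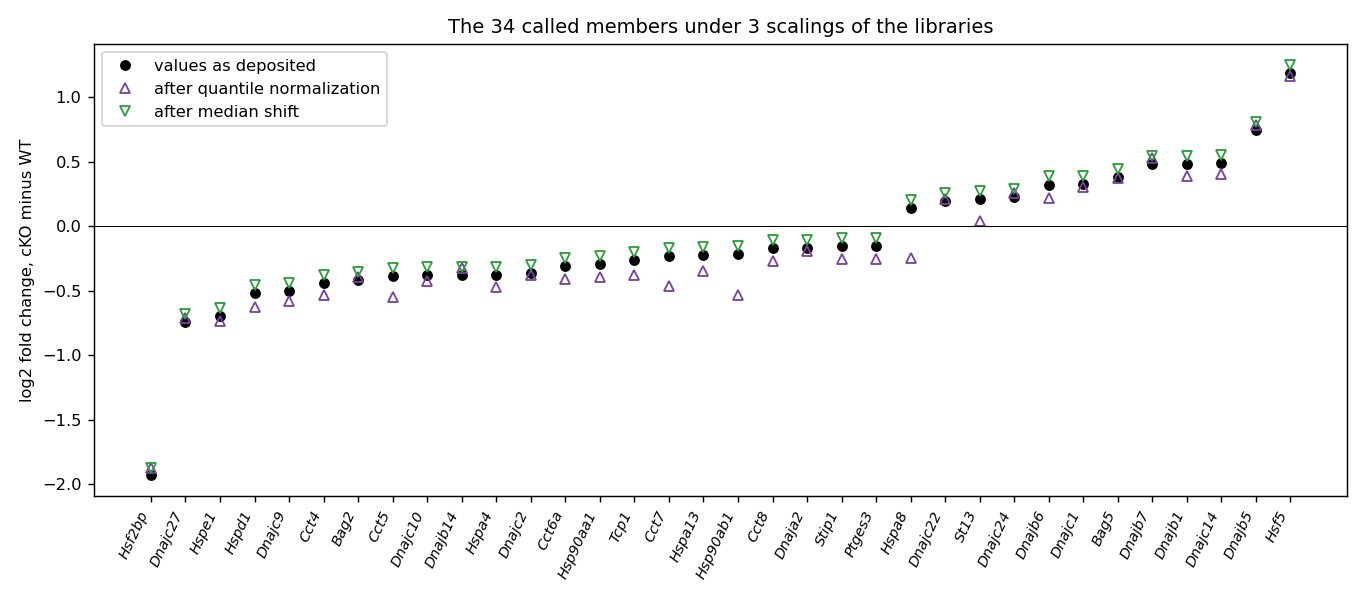
Log2 fold change (y axis) of the 34 called members with the values as deposited (black dots), after quantile normalization (purple triangles) and after a median shift (green triangles). Hspa8 is the 1 gene that changes sign, from 0.14 to -0.25 after quantile normalization.

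Other folding and stress genes were read from lists beside the members. For comparison, 19.5% of all tested genes rose and 17.8% fell. Of 16 chaperones and folding enzymes of the endoplasmic reticulum, 4 rose and 5 fell (median -0.02). After quantile normalization 1 rose and 8 fell, and Hspa5, the main HSP70 of that compartment, went from 0.12 to -0.23, so this split rests on the scaling. Pdia4, a disulfide isomerase, rose by 0.93 (SE 0.02), and Canx, the lectin chaperone calnexin, fell by 0.61 (SE 0.03). Of 8 further genes of the heat shock and oxidative stress responses, 3 rose and 2 fell. The polyubiquitin gene Ubb rose by 0.65 (SE 0.02), from 15.89 and 15.86 to 16.48 and 16.55, and Sqstm1, an autophagy receptor, by 0.35 (SE 0.02). Sqstm1 was at 0.07 after quantile normalization and was not called without the trend. The 2 falls were of Hmox1 (-0.60, SE 0.06) and Gclm (-0.57, SE 0.11), and both were called lower under these settings too. Of 15 tested immediate early genes, which handling of cells can induce, 4 rose and 5 fell, with Klf6 (0.85, SE 0.03) and Dusp1 (0.65, SE 0.08) among the rises. Their part in the changes of the chaperone genes was not tested.

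Markers of other marrow cells also moved between the groups, and their part was not tested either. The counts below stand beside 19.5% of all tested genes called higher and 17.8% lower. Only 4 of the 11 listed mature neutrophil markers were tested, without S100a8 and S100a9, and of these 3 rose and 1 fell. Their summed level was 396.0 and 430.6 in WT and 1147 and 1154 in the knockout. The rise of the sum lay in Mmp8 (55.19 and 62.66 to 358.4 and 366.4) and Mmp9 (226.9 and 240.6 to 682.7 and 683.5). Cxcr2, which rose, and Padi4, which fell, were not called without the trend. Of 8 monocyte and macrophage markers 5 rose and 1 fell (4 and 2 after quantile normalization, with Adgre1 reversed). Of 4 erythroid markers 0 rose and 3 fell, and of 3 T and NK cell markers 0 rose and 3 fell. Without the trend none of the erythroid markers was called, while all 3 T and NK cell markers still fell. The erythroid list held 11 genes and the T and NK list 10, so most of each was not tested. Of 7 megakaryocyte markers 2 rose and 2 fell, and the 1 B cell marker with a row, Cd79b, rose. Cd79b was not called without the trend, nor without WT replicate 1, WT replicate 2 or cKO replicate 1. Among 7 markers of endothelium and stroma 1 fell and 0 rose. The fall was of Pecam1, from 12.29 and 12.34 in WT to 11.44 and 11.49 in the knockout. The others tested were near the bottom of the scale, at most 3.55 (Lepr, WT replicate 2), so the count rests on Pecam1 alone. Of the 7 haematopoietic markers 3 rose and 1 fell, but after quantile normalization 2 rose and 4 fell, with Cd53 reversed from 0.23 to -0.11.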

How the data were processed

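Poly(A) RNA-seq of 4 libraries was used, 2 WT and 2 Ybx1 cKO. The tools named, per the submitters' processing notes, are DESeq2, featureCounts, HISAT2 2.1.0 and CASAVA; the build is GRCm38, and neither their order nor their roles are stated. The authors deposited 1 score per gene and library on a log scale of unstated base; 0 value columns were left out. No source used here gives the transformation. Read as log2 divided by ln 2, replicate noise was 1.10 (WT) and 1.31 (cKO) times Poisson noise; read as plain log2 it was 4.85 and 5.94 times. All scores were multiplied by 0.693. Back-transformed levels summed to 11157952 and 11074317 in WT and 12104617 and 12134026 in cKO. They are not known to be counts, so depth is unknown and no counting interval is given.

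Genes that reached a score of 1 in 2 or more libraries were tested with limma 3.58.1 in R 4.3.3 (lmFit, eBayes with trend, two-sided, Benjamini-Hochberg over all genes tested). Exon lengths and positions came from GENCODE M21, which held 93 of the 95 symbols. Tables and plots were made in Python 3.11.15 (numpy 2.4.6, pandas 2.3.3, matplotlib 3.10.9). The design had also provided for counts and linear units; those fits were not run.

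Members, role classes, 8 pathway lists and 9 marker lists were chosen with earlier results of these data known, and replicate numbers were taken from the labels. Named genes were: well-known members in any case; up to 4 called members of each role with the smallest p-values and 2 uncalled ones with the highest level; the 5 largest rises and falls; and 2 called genes of each other list. Others are named after their values were seen. 1 member below the test is not reported here.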

Additional observations from a re-analysis of the deposited data

How the results depend on the processing

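With 12 members called higher and 22 lower, the counts stayed within 1.5 times except where given here. Without a filter 7 members were called higher, and at an adjusted p threshold of 0.01 also 7. When the prior variance had no trend, 2267 genes passed in place of 5803, with 3 members higher and 5 lower. Requiring an absolute log2 fold change of at least 1 left 854 genes, 1 member higher and 1 lower, which is fewer by construction. When 1 library was left out, 4662 to 5803 genes were called, 7 to 13 members were higher and 18 to 22 lower, and the members' median lay between -0.06 and -0.02; WT replicate 1 gave the 7. Of the 34 calls, 24 remained with any 1 library left out. Those fits assume that the lone library of a group varies like the others, and they gave smaller p-values for strong genes (for Canx a limma adjusted p of 2.4e-59 without cKO replicate 2, against 1.5e-13), so a call kept there is a weak check. Quantile normalization reversed Hspa8 (log2 fold change -0.25). The cause of these differences was not tested. Replicate numbers are shared by the groups, but same-numbered libraries did not deviate together (r = 0.01 over 15527 genes), so they share only a number; with the replicate block 6026 genes were called, with 13 members higher and 25 lower, and all 34 calls remained. Because the scores are already logarithmic and not counts, another pseudocount and DESeq2 were not run. Members at low levels had wide errors (SE 0.39 for Hsf5 and 0.53 for Hsf2bp), and depth is unknown.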
